A study of Mus musculus with 6 samples.

Results

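The transcripts of 10 inflammatory chemokine genes (Cxcl1, Cxcl2, Cxcl5, Cxcl10, Cxcl12, Cx3cl1, Ccl2, Ccl3, Ccl7 and Ccl20) were followed in mouse ATDC5 cells. They were taken by gene symbol from a table of 16880 genes, which held all 10. ATDC5 is a mouse chondrogenic cell line, and the cells are named as in the sample labels, whereas the study's methods call the sequenced cells chondrocytes. Both groups received 10 ng/mL interleukin-1β (IL-1β), a cytokine used to provoke an osteoarthritis-like response in cartilage cells. The second group also received 10 μmol/L NP-G2-044, an inhibitor of fascin (FSCN1), the protein that bundles actin filaments. Cells were treated for 24 h. Each group had 3 libraries, described as biological replicates in the methods. The labels do not say whether the replicates were separate cultures, so the p-values measure the spread between these samples, which may be technical. Cells given only the DMSO vehicle were not analysed here, so no level before IL-1β is given. Sample titles name the compound NP-G2-044, while the treatment field of the same samples carries the code NP-G2-047, and the titles were followed. As a model, the data come from 1 established line treated with 1 dose at 1 time.

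Chemokines are small secreted proteins that steer leukocytes by binding G protein-coupled receptors on their surface. They are classed as CXC, CC or CX3C by the spacing of their first cysteines, and the CXC members that carry the Glu-Leu-Arg (ELR) motif mainly recruit neutrophils, whereas CC members mainly recruit monocytes, macrophages and lymphocytes. IL-1β binds the receptor pair encoded by Il1r1 and Il1rap, and the adaptor MyD88 and the IRAK kinases then release NF-κB to the promoters of many chemokine genes. In an inflamed joint, chemokines from chondrocytes and synovial fibroblasts draw leukocytes into the synovium.

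Each library held between 16615824 and 17735860 estimated reads, and 11983 genes passed the filter on low counts. Log2 CPM correlated at 0.995 or more between libraries of 1 group and at 0.928 or less between groups. A large share of the transcriptome differed: 4768 genes were lower and 4816 higher in IL-1β plus NP-G2-044. Fscn1, which encodes the target of the inhibitor, fell from 616.2 ± 9.46 to 252.4 ± 2.47 TPM (transcripts scaled per length and library; mean ± SD, n = 3 here and below), and NP-G2-044 acts on the protein, so this does not check the treatment. Most chondrocyte markers were near absent, with 8 of the 11 in the table below 1 TPM in both groups. Col2a1 (type II collagen) was among these 8, and Matn1 was at 0 in every library. Of those above 1 TPM, Sox9 rose from 6.44 to 11.4 TPM, while Sox5 fell from 10.3 to 2.27 TPM and Col11a2 from 5.01 to 3.43 TPM. Fibroblast markers summed to between 5371.5 and 5560.6 TPM with IL-1β and between 1062.5 and 1149.1 TPM with NP-G2-044 added. That sum was mostly S100a4 (4313.1 against 730.4 TPM) and Col1a2 (1098.4 against 330.8 TPM), while Pdgfra went the other way (2.36 against 8.69 TPM) and 4 of the 10 markers lay below 1 TPM. Of 10 leukocyte markers, 8 lay below 1 TPM and Ptprc, the pan-leukocyte marker CD45, was 0 in all 6 libraries. The leukocyte sum, 24.2 to 25.3 TPM against 129.0 to 140.3 TPM, followed Cd68, a lysosomal protein gene (12.4 against 129.9 TPM), while Cd14 went the other way (11.4 against 4.89 TPM). All 5 endothelial markers in the table lay below 1 TPM.

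The 10 genes lie at several places in the genome (RefSeq, GRCm38.p6). Cxcl5 (chr5:90759298-90761625), Cxcl1 (chr5:90891245-90893121) and Cxcl2 (chr5:90903899-90905938) share a cluster of CXC genes with Cxcl3, 146.6 kb from end to end. Ccl2 (chr11:82035577-82037452) and Ccl7 (chr11:82045712-82047525) are neighbours within 11.9 kb. Cxcl10 (chr5:92346638-92348889), Cxcl12 (chr6:117168535-117181368), Cx3cl1 (chr8:94772180-94782427), Ccl3 (chr11:83647843-83649378) and Ccl20 (chr1:83116766-83119167) stand elsewhere, and Cxcl10 and Ccl3 are on the minus strand. RefSeq promoter sequence was at hand for 7 of the 10, and Cxcl5, Ccl2 and Ccl7 are named only. The 250 bases before the start are shown for a clustered pair with the same κB match (Cxcl1 and Cxcl2), for the member tested that did not pass (Cxcl10), and for a strongly lowered member without a match (Cxcl12). Capitals mark matches on either strand to the κB consensus, to the core of the interferon-stimulated response element (GAAA and GAAA separated by any 2 bases) and to the AP-1 site TGANTCA.
Cxcl1, chr5:90890995-90891244, plus strand: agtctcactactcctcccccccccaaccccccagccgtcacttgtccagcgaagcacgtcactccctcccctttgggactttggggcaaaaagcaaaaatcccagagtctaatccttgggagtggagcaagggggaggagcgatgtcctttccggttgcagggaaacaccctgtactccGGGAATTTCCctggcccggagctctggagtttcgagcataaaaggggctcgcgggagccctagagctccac
Cxcl2, chr5:90903649-90903898, plus strand: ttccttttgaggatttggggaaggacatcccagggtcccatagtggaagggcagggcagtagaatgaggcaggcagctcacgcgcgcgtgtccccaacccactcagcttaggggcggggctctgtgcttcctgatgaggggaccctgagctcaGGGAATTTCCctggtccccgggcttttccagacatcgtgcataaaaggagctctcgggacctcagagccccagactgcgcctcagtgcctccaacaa
Cxcl10, chr5:92348890-92349139, minus strand: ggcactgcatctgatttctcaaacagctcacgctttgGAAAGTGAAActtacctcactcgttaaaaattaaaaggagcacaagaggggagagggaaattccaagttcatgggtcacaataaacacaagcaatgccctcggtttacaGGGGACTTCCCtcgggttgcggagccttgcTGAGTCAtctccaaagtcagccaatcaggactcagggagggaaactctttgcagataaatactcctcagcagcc
Cxcl12, chr6:117168285-117168534, plus strand: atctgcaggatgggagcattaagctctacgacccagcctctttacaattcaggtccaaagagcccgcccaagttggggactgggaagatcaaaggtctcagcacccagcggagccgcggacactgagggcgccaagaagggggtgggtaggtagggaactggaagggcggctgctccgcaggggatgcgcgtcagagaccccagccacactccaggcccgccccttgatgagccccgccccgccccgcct

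The κB consensus, the binding sequence of NF-κB, was found in 4 of the 7 promoters (Cxcl1, Cxcl2, Cxcl10 and Ccl20), against 5.0% of 32851 promoters of the same length. Cxcl1 and Cxcl2 carried the same 10 bases, GGGAATTTCC, at 71 to 62 and at 97 to 88 bases before the start. In Cxcl10, a pair of overlapping matches, GGGGACTTCC and GGGACTTCCC, lay between 104 and 94 bases before the start. Cxcl10 was the only member of the 7 with the interferon-response core (213 to 204 bases before the start, in 2.98% of all promoters) or the AP-1 site (74 to 68 bases before the start, in 6.75%). No κB match was found in these windows of Cxcl12, Cx3cl1 and Ccl3. A match is a sequence of letters, not a measured binding site.

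With NP-G2-044 added, 8 of the 9 testable chemokines fell and none rose. The steepest falls among abundant members were those of Cx3cl1 (14.7-fold), Cxcl12 (10.2-fold) and Ccl7 (7.1-fold), and Cxcl2 fell least, by 1.43-fold. Cxcl10 did not pass the test, and Ccl20 had 1 read in each group and was not tested. Genes were tested by edgeR's quasi-likelihood test over all 11983 genes with Benjamini-Hochberg adjustment, and a call needed an adjusted p below 0.05. Over all genes tested, 39.8% were called lower and 40.2% higher, so a lower call alone is common in these data. When a log2 fold change beyond -1 was also required, 7 of the 9 chemokines were called lower, against 10.1% of all genes, and 0 were called higher, against 6.48%. The count of higher calls was also 0 at an unadjusted p below 0.05, by DESeq2 and by limma. The groups did not overlap in 8 of the 9, all lower, against 40.1% of all genes that were lower and 40.7% that were higher without overlap. The median log2 fold change was -2.45 over the 9 and 0.002 over all genes tested, whose 5th and 95th percentiles were -1.64 and 1.15. These counts and the median describe the list, since Ccl3 passed the filter only through its reads in the IL-1β group. In bulk RNA, fewer cells that express a gene and less RNA per cell cannot be told apart.

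**Figure D1:**
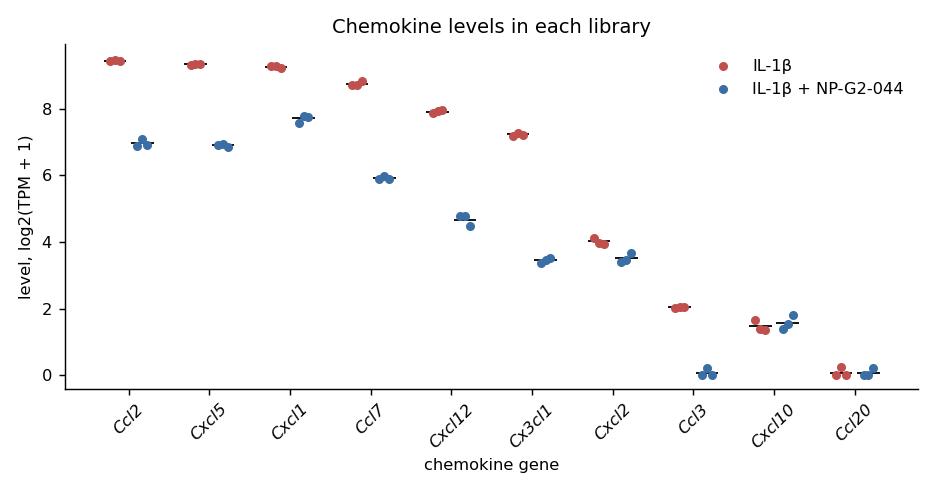
Level of each chemokine gene, as log2(TPM + 1), in the 3 IL-1β libraries (red points) and the 3 IL-1β plus NP-G2-044 libraries (blue points), with black bars at the mean of the log2 values. The red and blue points stand apart for 8 genes and overlap for Cxcl10 and Ccl20, which lie near the bottom of the axis.

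Among the neutrophil-attracting ELR chemokines, Cxcl1, Cxcl2 and Cxcl5, which signal through the receptor CXCR2, all fell, and by unequal amounts. Cxcl1, also known as KC, was at 623.0, 613.2 and 596.0 TPM in the 3 IL-1β libraries and at 187.4, 220.4 and 215.8 TPM with NP-G2-044 added. Every IL-1β library was above every NP-G2-044 library, and the first NP-G2-044 library was the lowest of the 6. Its mean went from 610.7 ± 13.7 to 207.9 ± 17.8 TPM, a log2 fold change of -1.53 ± 0.0509 (SE; adjusted p = 3.45e-12, edgeR). Cxcl5, also known as LIX, was at 625.9, 638.8 and 650.7 TPM with IL-1β and at 119.0, 121.6 and 113.5 TPM with both agents. The groups were far apart relative to their spread, and the log2 fold change was -2.41 ± 0.031 (SE; adjusted p = 1.25e-51, edgeR), or 5.3-fold. Of the 11983 genes, 5.62% had a lower fold change than Cxcl1 and 2.69% a lower one than Cxcl5.

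Cxcl2, also known as MIP-2, was far less abundant than Cxcl1, its neighbour with the same κB match. It stood at 16.5, 14.7 and 14.4 TPM with IL-1β and at 9.59, 10.1 and 11.7 TPM with NP-G2-044 added, from 87 to 144 reads a library. The groups came close without overlapping. The log2 fold change was -0.52 ± 0.116 (SE; adjusted p = 8.16e-05, edgeR), a change short of the fold cutoff, and 21.1% of all genes tested had a lower value. When the test asked whether the fold exceeded 2 in size (glmTreat), the adjusted p of Cxcl2 was 1.0. Of the 50-base windows of Cxcl2 transcripts (GENCODE vM21), 5.84% also occur in Cxcl3, so reads of these paralogs may be divided unequally. With IL-1β, Cxcl3 had from 6537 to 6950 reads a library and Cxcl2 from 124 to 144. Misplaced Cxcl3 reads could therefore weigh on the level and fold change of Cxcl2, which was not tested. Together the ELR trio held 1264.4 ± 2.96 TPM with IL-1β and 336.3 ± 18.5 TPM with both agents, 3.76-fold less.

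Cxcl12 and Cxcl10 are CXC chemokines without the ELR motif. Cxcl12, or SDF-1, is made by stromal cells, binds CXCR4 and ACKR3, and holds progenitor cells and lymphocytes in their niches. It was at 230.4, 240.9 and 246.3 TPM with IL-1β and at 26.3, 26.2 and 21.3 TPM with NP-G2-044 added. The groups were far apart, and the third NP-G2-044 library was the lowest of the 6. The log2 fold change was -3.35 ± 0.0391 (SE; adjusted p = 1.84e-50, edgeR), and 1.26% of the genes tested had a lower one. This is the member whose promoter, printed above, held no κB match.

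Cxcl10, or IP-10, attracts activated T cells through CXCR3 and is known as an interferon-induced gene. It was scarce, with read counts of 19, 14 and 14 under IL-1β and of 15, 18 and 24 with both agents, and the groups overlapped. Mean levels were 1.78 ± 0.303 and 2.02 ± 0.472 TPM. The log2 fold change was 0.20 ± 0.286 (SE; adjusted p = 0.513, edgeR) with a 95% interval from -0.35 to 0.76. The interval leaves out falls of the size seen for the 7 members past the fold cutoff, but not a modest change in either direction. The exons of Cxcl10 overlap those of Art3 on the opposite strand by 133 bases, and the strand setting of the counting was not given, so reads there may belong to either gene.

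Cx3cl1, or fractalkine, is made as a membrane-anchored chemokine that binds CX3CR1 on monocytes and natural killer cells and is shed by ADAM10 and ADAM17. Its levels were 144.2, 154.2 and 147.7 TPM with IL-1β and 9.22, 9.95 and 10.5 TPM with both agents. The NP-G2-044 libraries were close to each other and far below every IL-1β library. The log2 fold change was -3.88 ± 0.0432 (SE; adjusted p = 1.55e-54, edgeR), and 0.784% of the genes tested had a lower one. Under IL-1β alone Cx3cl1 lay well above Cxcl2, and with NP-G2-044 added their ranges overlapped.

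Ccl2 and Ccl7, the monocyte chemoattractants MCP-1 and MCP-3, bind CCR2 and are adjacent genes. Ccl2 was the most abundant member under IL-1β, at 681.3, 704.4 and 685.5 TPM, and was at 117.4, 135.3 and 119.7 TPM with NP-G2-044 added. Its groups did not overlap, and the log2 fold change was -2.45 ± 0.0391 (SE; adjusted p = 2.35e-45, edgeR), or 5.48-fold. Ccl7 was at 417.8, 417.2 and 451.2 TPM with IL-1β and at 58.3, 61.9 and 58.4 TPM with both agents. The lower group was tight, and the log2 fold change was -2.83 ± 0.0462 (SE; adjusted p = 7.98e-47, edgeR). The neighbours fell together, from 1119.1 ± 18.9 to 183.7 ± 11.7 TPM in sum, or 6.09-fold. The ratio of Ccl2 to Ccl7 went from 1.61 ± 0.0859 to 2.08 ± 0.0915.

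Ccl3, or MIP-1α, a macrophage inflammatory protein made mostly by leukocytes, was near the limit of detection. It had 17 reads in every library given IL-1β alone (3.10 ± 0.0451 TPM) and 0, 1 and 0 reads in the NP-G2-044 libraries. The pooled reads, scaled to library size, were 53.7 times as many with IL-1β alone, with an exact 95% interval from 9.21 to 2161.2 that covers counting error only. The fitted log2 fold change was -5.29 ± 0.657 (SE; adjusted p = 3.23e-10, edgeR), a value that rests on the treatment of near-zero counts. It became -7.12 without the second NP-G2-044 library, which held the only read, and -1.96 by limma on log2(TPM + 1). The call held in both, but Ccl3 passed the filter only through the IL-1β group, which fixes its direction. Ptprc was 0 in every library, as given above, and the source of the Ccl3 reads was not tested. Ccl20, or MIP-3α, the ligand of CCR6, had 0, 1 and 0 reads with IL-1β and 0, 0 and 1 with both agents. Its pooled ratio was 1.05 with an exact 95% interval from 0.0134 to 82.6, so no difference was detectable at this depth. The Ccl20 promoter held a κB match, and a link between such matches and the changes was not tested.

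**Figure D2:**
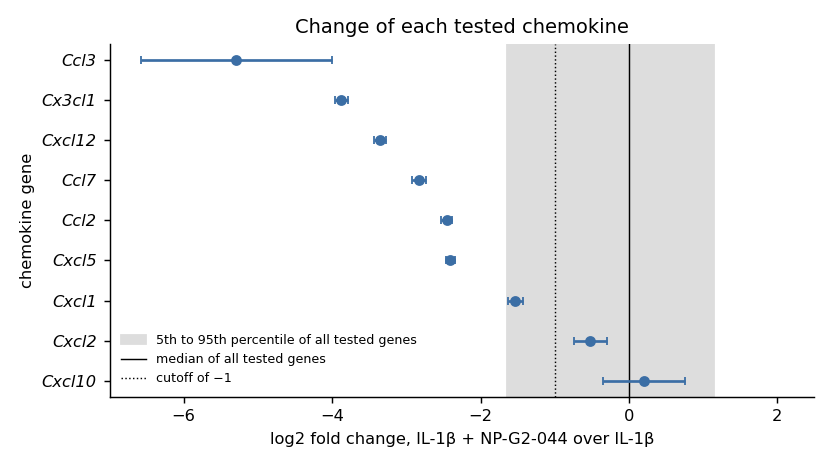
Log2 fold change of each of the 9 tested chemokines (points) with its 95% interval, relative to IL-1β alone, against the median of all 11983 genes tested (solid line, 0.002), their 5th to 95th percentile (grey, -1.64 to 1.15) and the cutoff of -1 (dotted). Ccl3, Cx3cl1, Cxcl12, Ccl7, Ccl2 and Cxcl5 lie below the grey band, Cxcl1 and Cxcl2 within its lower side, and Cxcl10 spans the median.

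Levels per transcript length can be compared between genes in TPM. The 10 chemokines summed to 2744.4, 2788.4 and 2796.5 TPM in the IL-1β libraries and to 528.9, 587.4 and 553.6 TPM with NP-G2-044 added, and the groups were well apart. The means were 2776.4 ± 28.1 and 556.6 ± 29.4 TPM, a 4.99-fold difference, given without a test because the list was chosen. In the IL-1β libraries the order was Ccl2, Cxcl5, Cxcl1, Ccl7, Cxcl12, Cx3cl1, Cxcl2, Ccl3, Cxcl10 and Ccl20, and no neighbours in it overlapped in range. With NP-G2-044 added, Cxcl1 came first and Ccl2 and Cxcl5, whose ranges overlapped, followed. Ccl7 and Cxcl12 came next, then Cxcl2 and Cx3cl1, which overlapped, then Cxcl10, and last Ccl3 and Ccl20, which also overlapped.

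The makeup of the chemokine pool shifted with the unequal falls. Cxcl1 made up 22.0 ± 0.694% of the summed TPM with IL-1β and 37.3 ± 1.78% with both agents. The shares of Ccl2 and Cxcl5 moved less, 24.9 ± 0.375% against 22.3 ± 0.707% and 23.0 ± 0.242% against 21.2 ± 1.1%. Ccl7 went from 15.4 ± 0.615% to 10.7 ± 0.279%, Cxcl12 from 8.61 ± 0.208% to 4.43 ± 0.563%, and Cx3cl1 from 5.36 ± 0.152% to 1.78 ± 0.104%. The other 4 genes together were a minor part in every library. Cxcl1 and Cxcl5 were near parity under IL-1β, with a ratio of 0.957 ± 0.0398, and stood at 1.76 ± 0.168 with NP-G2-044 added. The ratio of Cxcl1 to Cx3cl1 went from 4.11 ± 0.183 to 21.0 ± 0.984. None of these ratios overlapped between groups, and shares of 1 total are bound to each other.

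**Figure D3:**
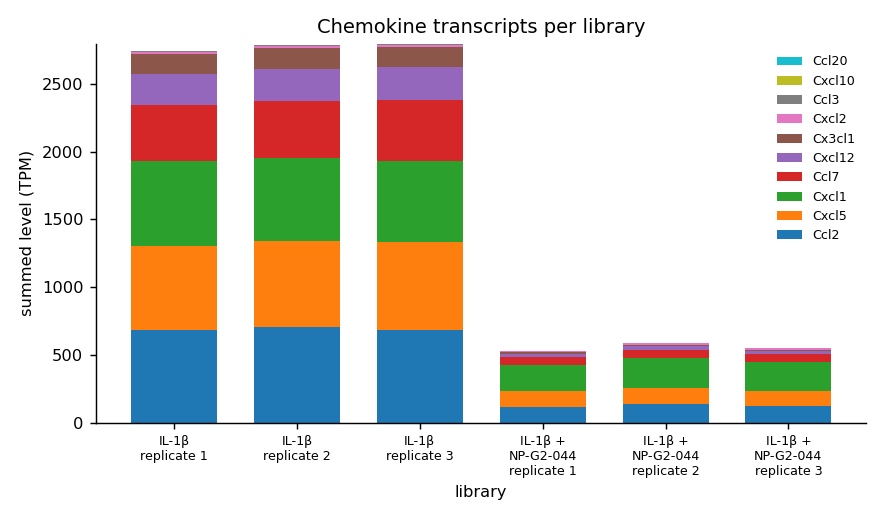
Summed TPM of the 10 chemokine genes in each of the 6 libraries, stacked by gene. The IL-1β columns reach 2744.4 to 2796.5 TPM and the IL-1β plus NP-G2-044 columns 528.9 to 587.4 TPM, with Cxcl1 (green) the widest band in the latter.

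Few of the remaining chemokine ligands passed the filter. Of 30 further ligands, 19 were in the table and 7 passed the filter, and 5 of these fell while 2 rose, with a median log2 fold change of -1.62. All 5 that fell were past the fold cutoff, as was 1 of the 2 that rose. Over all genes tested, 39.8% were lower and 40.2% higher, and 10.1% and 6.48% past the fold cutoff. Cxcl3, an ELR chemokine of the same cluster, was the most abundant ligand of all under IL-1β, at 852.3 ± 13.5 TPM, and fell to 272.9 ± 17.7 TPM, a log2 fold change of -1.62 ± 0.0362 (SE; adjusted p = 9.68e-27, edgeR). That value lay near the -1.53 of its neighbour Cxcl1. Ccl5, or RANTES, which attracts T cells, fell from 110.2 ± 7.98 to 24.9 ± 4.88 TPM (log2 fold change -2.14). Ccl8, another CC chemokine, fell from 22.7 ± 5.19 to 10.7 ± 2.14 TPM (-1.08). Ppbp, a platelet CXC chemokine, and Ccl9, a CCR1 ligand, were scarce and had log2 fold changes of -3.26 and -5.54, from means of 2.94 and 1.21 TPM. The 2 that rose were Ccl25, the CCR9 ligand of thymus and gut, by a log2 fold change of 0.42, and Ccl28, an epithelial chemokine, by 3.01 from 5 to 45 reads over the group. Ppbp, Ccl9 and Ccl28 passed the filter only through the group where they were higher, which fixes their direction, so the counts and the median describe the list.

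Receptors were nearly absent. Of 18 receptor genes in the table, 2 passed the filter, both only through the IL-1β group, which fixes their direction. Both were called lower past the fold cutoff, as were 10.1% of all genes tested. Ackr3, the scavenger receptor that takes up Cxcl12, went from 5.59, 4.02 and 4.63 TPM to 0.15, 0.25 and 0.15 TPM. Its fitted log2 fold change was -4.64 ± 0.277 (SE, edgeR). Xcr1, the receptor of the chemokine Xcl1, fell by 1.18 on the log2 scale, from 48 to 22 reads over the group. Cxcr4, the signalling receptor of Cxcl12, was below the filter and was singled out after its values were seen. It had 9, 12 and 7 reads with IL-1β and 0 in each NP-G2-044 library, at least 9.82-fold higher with IL-1β alone when the zero group is set to a floor of 3 reads over the group.

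Genes of the path from the IL-1 receptor to NF-κB went both ways. Of 29 tested, 11 fell, 15 rose and 3 did not pass, with 4 past the fold cutoff in each direction and a median log2 fold change of 0.12. Over all genes, as given above, 39.8% were lower and 40.2% higher, and 10.1% and 6.48% past the fold cutoff. Calls in both directions are thus common in these data, and the difference of this list from these shares was not tested. Il1rn, named after its values were seen, was 1 of the 4 higher and met the filter in every library of the NP-G2-044 group only. Il1rap, the accessory chain of the receptor, fell from 5.04 ± 0.211 to 1.21 ± 0.263 TPM (log2 fold change -2.10), while Il1r1, the ligand-binding chain, fell by 0.25 on the log2 scale. Of the NF-κB subunit genes, Nfkb1 fell by 1.08 on the same scale, while Rela rose by 0.43, Nfkb2 by 0.51 and Relb by 1.11. Rel did not pass. Nfkb2, Relb and Rel were named after their values were seen. Nfkbia, which encodes the inhibitor IκBα and is itself an NF-κB target, fell from 176.0 ± 3.75 to 85.7 ± 3.69 TPM (-1.01). Nfkbiz, an atypical IκB protein needed for part of the NF-κB response, fell by 1.60, whereas the inhibitor gene Nfkbib rose by 1.76 and Tollip, an adaptor that restrains IL-1 signalling, by 1.14.

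Among other genes known to respond to IL-1β, 14 were tested, of which 9 fell, 3 rose and 2 did not pass, with a median log2 fold change of -1.03. Past the fold cutoff, 7 were lower and 1 higher. Over all genes tested, 39.8% were lower and 40.2% higher, and 10.1% and 6.48% past the fold cutoff, and the difference from these shares was not tested. Of the 7, Vcam1, Il1a and Il6, the last 2 named after their values were seen, met the filter in every library of the IL-1β group only. C3, the central complement component, fell from 26.6 ± 2.17 to 1.44 ± 0.22 TPM (log2 fold change -4.35). Nos2, the inducible nitric oxide synthase, fell from 111.4 ± 2.27 to 12.3 ± 1.29 TPM (-3.14), and Saa3, an acute-phase protein, from 330.7 ± 30.7 to 37.3 ± 5.26 TPM (-3.08). Vcam1, a leukocyte adhesion molecule, had 103, 101 and 89 reads with IL-1β and 8, 7 and 17 with both agents (-3.25). In the list around Cxcl10 and interferon, 12 genes were tested, 5 fell, 3 rose and 4 did not pass, with a median of -0.31. Irf1, a transcription factor of the interferon response, fell from 46.4 ± 1.71 to 17.1 ± 1.6 TPM (-1.41), while Cxcl10 itself did not pass.

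**Figure D4:**
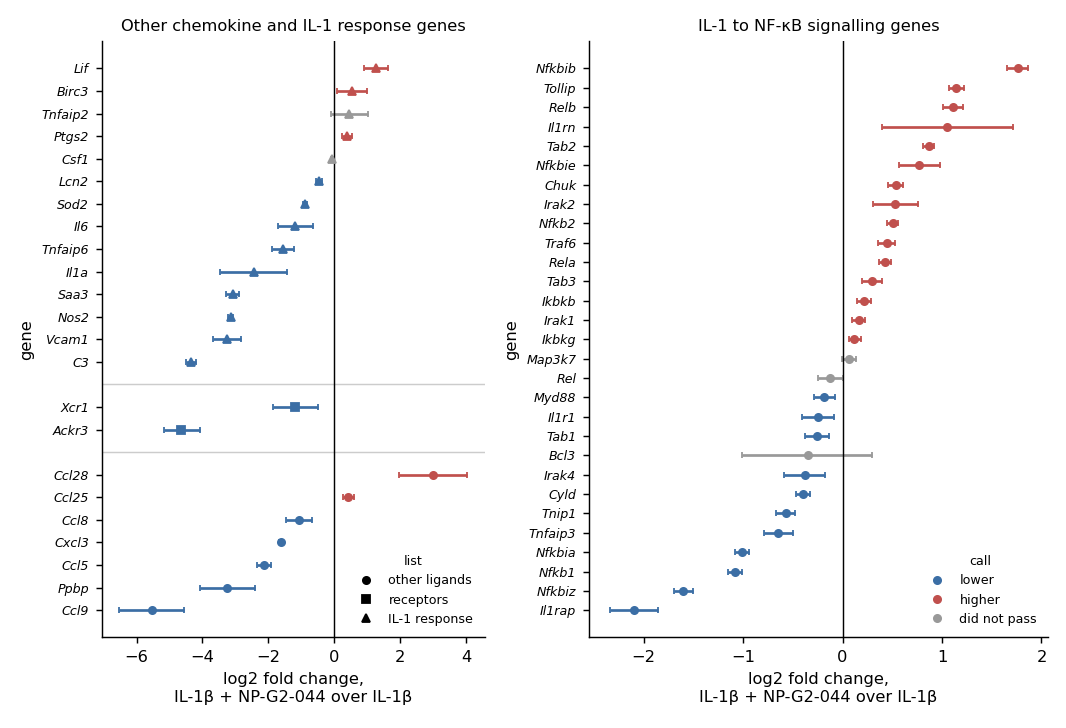
Log2 fold change relative to IL-1β alone with its 95% interval for tested genes of 4 lists: other ligands (circles), receptors (squares) and other IL-1 response genes (triangles) on the left, and IL-1 to NF-κB signalling genes on the right, on separate x axes. Blue marks genes called lower, red higher and grey those that did not pass. On the left most symbols lie below 0, and on the right 11 genes are blue and 15 red.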

How the data were processed

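The 6 libraries, 3 per group, are of ATDC5 cells per the labels. The study's methods speak of chondrocytes and state that BGI carried out RNA extraction and sequencing. The submitters' processing notes name the build mm10 and the tools cutadapt, HISAT2 2.0 and StringTie, with no role or order, and the counting tool, annotation release and strand setting were not given in the sources used here. The deposited table holds estimated counts, TPM and FPKM per gene and library, made by the authors, and group means of each, made by the authors. FPKM and the group means were not used.

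Estimated counts, of which 10.17 to 11.06% per library were not whole, were rounded. Of 16880 genes, 715 were 0 in every library. Genes passing filterByExpr (minimum count 10) were normalized by TMM and tested by edgeR 4.0.16 (R 4.3.3) with glmQLFit and glmQLFTest over the 6 libraries, without covariates, with Benjamini-Hochberg adjustment. The cutoffs were an adjusted p of 0.05 and a log2 fold change of 1 in size. The SE is the size of the log2 fold change divided by the square root of the test's F statistic. Intervals are 1.96 SE around the fitted value. They ignore the test's finite degrees of freedom and are rough at near-zero counts, as for Ccl3. Levels are deposited TPM. Intervals for low counts are exact (Clopper-Pearson) on reads pooled over a group and cover counting error only. The fits were run on simulated data in which few genes changed, equally often up and down. That run does not test them under a change as wide as the one seen here.

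Alternatives were DESeq2 1.42.0 (size factors and Wald test), library size alone, limma 3.58.1 on log2(TPM + 1) and log2(TPM + 0.1), no filter, a filter of 10 CPM in 3 libraries, a replicate block, glmTreat against a fold of 2, and each library left out. Named were the 10 chemokines, every tested gene of the ligand and receptor lists, Fscn1, marker genes, Il1r1, Rela, Nfkb1, Nfkbia and Irf1, and up to 4 genes per other list with the largest change past both cutoffs. The chemokines and lists were chosen with earlier results of these data known. Positions and promoters came from RefSeq (GRCm38.p6) and transcript windows from GENCODE vM21.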

Additional observations from a re-analysis of the deposited data

How the results depend on the processing

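Of 255 values recomputed under 16 alternative settings, 249 kept their direction and their side of the threshold or stayed within 1.5 times the reported count, and none turned direction. Cxcl2 was no longer called when tested against a fold of 2 by glmTreat (log2 fold change -0.52, adjusted p 1.0). Limma on log2(TPM + 1) called 802 genes lower and 514 higher past the fold cutoff, and the filter of 10 CPM called 680 lower and 484 higher, against 1211 and 776. That filter tested 6 of the chemokines, leaving out Cxcl2, Cxcl10 and Ccl3, and called all 6 lower. From CPM in place of TPM the log2 ratio of the summed level, IL-1β over both agents, was 2.53 in place of 2.32. With 1 library left out, log2 fold changes ranged from -1.57 to -1.46 for Cxcl1, from -0.61 to -0.44 for Cxcl2, from -3.92 to -3.82 for Cx3cl1 and from 0.01 to 0.36 for Cxcl10, and no call changed among the 9 chemokines. Libraries with equal replicate numbers showed little shared deviation (correlations of deviations -0.093, -0.024 and 0.026). With 3 libraries a group, this cannot settle whether the samples were paired. With a replicate block, 8 chemokines stayed lower, 7 past the fold cutoff, and Cx3cl1 kept a log2 fold change of -3.88, with 4719 genes lower and 4779 higher over all. Low read counts limit what can be said of Cxcl10, Ccl3 and Ccl20.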

Other observations

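Genes that act on chemokine mRNA and protein after transcription were listed as well. Over all genes tested, 39.8% were called lower and 40.2% higher, and 10.1% and 6.48% past the fold cutoff. No difference from these shares was tested. In the list of mRNA turnover factors, all 14 genes were tested, 8 fell, 5 rose and 1 did not pass, with a median log2 fold change of -0.12. Zfp36l1, which binds AU-rich elements and promotes mRNA decay, fell from 160.9 ± 3.34 to 38.8 ± 0.639 TPM (log2 fold change -2.02), and Zc3h12a, the ribonuclease Regnase-1, fell from 26.4 ± 0.577 to 7.61 ± 0.372 TPM (-1.76). They were the genes of that list past the fold cutoff.

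Chemokines are held on the cell surface by heparan sulfate proteoglycans and released or trimmed by proteases. Of 14 genes tested for these steps, 11 fell, 2 rose and 1 did not pass, with a median log2 fold change of -0.54. Past the fold cutoff, 3 were lower and 1 higher, against 10.1% and 6.48% of all genes tested. The syndecans Sdc4 and Sdc3 fell from 61.6 ± 1.38 to 18.7 ± 1.11 TPM (-1.69) and from 285.6 ± 1.32 to 102.9 ± 1.1 TPM (-1.44), and the tyrosine sulfotransferase gene Tpst1 fell by 1.04 on the log2 scale. The glypican Gpc1 rose from 16.5 ± 0.662 to 41.9 ± 1.61 TPM (1.37).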
